A study of Bos taurus with 6 samples.

Results

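JCHAIN (ENSBTAG00000018531) and 5 genes that the deposited files list by identifier only (ENSBTAG00000047700, ENSBTAG00000048268, ENSBTAG00000046161, ENSBTAG00000047986 and ENSBTAG00000047529) were followed through the mammary gland of 6 Holstein heifers. They are 6 of the 24579 genes in the files. The members were selected on measured values: all 6 come from the study's table of genes that differed in read counts between its groups, in these same heifers, so their rise in one group is described below without a test. The question followed here is whether the 6 genes also moved together from heifer to heifer inside each group. The study compared heifers gestated by heat-stressed dams (IUHT-H, n = 3; heifers 9196, 9203 and 9204) with heifers gestated by cooled dams (IUCL-H, n = 3 here, with another not analysed here; heifers 9202, 9214 and 9223). Dams of IUHT-H had shade alone and dams of IUCL-H had shade, fans and soakers, over the last 6 to 7 weeks of gestation. All 6 heifers were born in 2014, were kept alike from birth, and gave a mammary biopsy on day 21 of their first lactation in 2016. Each heifer gave 1 RNA sequencing library.

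JCHAIN encodes the joining chain, a small polypeptide made by antibody-secreting plasma cells. It links immunoglobulin A into dimers, takes part in the assembly of polymeric immunoglobulin M, and is needed for the polymeric immunoglobulin receptor of epithelial cells to bind these antibodies and carry them across the epithelium into milk and other secretions. In the lactating gland plasma cells lie in the stroma next to the alveoli, outside the milk-secreting epithelium, so a biopsy takes up both. In the RefSeq gene table of assembly ARS-UCD2.0 JCHAIN (also known as IGJ) lies between ENAM, which encodes the enamel protein enamelin, and UTP3. The other 5 genes have no name in the files or in the study's tables, and nothing is stated here about what they encode.

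The libraries held between 75754791 and 101361294 counts, and all 3 IUHT-H totals were below all 3 IUCL-H totals. The 10 genes with the most counts took 65.8%, 64.7% and 74.7% of the counts in IUHT-H 9196, 9203 and 9204 and 67.6%, 72.5% and 72.1% in IUCL-H 9202, 9214 and 9223. The 6 genes had between 30 and 24168 counts per heifer, against a floor of 3 counts that corresponded to at most 0.0435 CPM (counts scaled by library size, with library sizes adjusted by the TMM method to allow for unequal shares of dominant genes). The lowest count, 30 for ENSBTAG00000046161 in IUCL-H 9223, has an exact 95% Poisson interval from 20.2 to 42.8, which covers counting error only. Of the 24579 genes, 14724 passed the filter on low counts, all 6 followed here included. The identity of the tissue and its cell types was not examined through marker genes. None of the 120 marker symbols listed for plasma cells, B cells, other leukocytes, epithelium and stroma could be paired with an identifier through the RefSeq gene table. Names taken from the study existed for 257 of the 14724 genes, and cell types were not examined through these.

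JCHAIN stood at 142.4, 223.4 and 81.0 CPM in IUHT-H 9196, 9203 and 9204 and at 37.9, 36.7 and 69.6 CPM in IUCL-H 9202, 9214 and 9223. The groups did not overlap, but the lowest of the heat-stressed side, 9204, was close to the highest of the cooled side, 9223. The mean was 149 CPM in IUHT-H with an SD of 71.5 CPM, against 48.1 CPM with an SD of 18.7 CPM in IUCL-H (n = 3 each), and the fitted log2 fold change was 1.63 (standard error 0.39). In tissue samples of this kind, more cells of a type and more RNA per cell cannot be told apart.

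ENSBTAG00000047700, with more counts than any other of the 5 unnamed genes, had 268, 246 and 89.1 CPM in IUHT-H 9196, 9203 and 9204. In IUCL-H 9202, 9214 and 9223 it had 57.4, 36.8 and 61.8 CPM. The groups did not overlap, and IUHT-H 9204 was again nearest to the IUCL-H. Its log2 fold change was 1.95 (standard error 0.40).

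ENSBTAG00000047986 had 24.9, 24.3 and 8.97 CPM in the same 3 IUHT-H against 4.16, 5.49 and 12.1 CPM in the 3 IUCL-H. Here the groups overlapped, because IUCL-H 9223 was above IUHT-H 9204, just as these heifers were the closest pair for JCHAIN. Its log2 fold change of 1.42 (standard error 0.48) was the smallest of the 6.

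ENSBTAG00000048268 had 9.28, 10.7 and 2.06 CPM in IUHT-H 9196, 9203 and 9204. It had 1.01, 2.61 and 1.86 CPM in IUCL-H 9202, 9214 and 9223, so IUHT-H 9204 fell inside the range of the IUCL-H while the other IUHT-H were well above it. ENSBTAG00000046161, counted at the lowest level of the 6, had 2.49, 3.30 and 0.841 CPM in IUHT-H against 0.417, 0.775 and 0.342 CPM in IUCL-H. The groups were separated only by the narrow gap between IUHT-H 9204 and IUCL-H 9214. The log2 fold changes were 2.01 (standard error 0.59) and 2.11 (standard error 0.53).

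ENSBTAG00000047529 had 9.59, 29.2 and 7.31 CPM in IUHT-H 9196, 9203 and 9204 and 5.23, 4.23 and 2.96 CPM in IUCL-H 9202, 9214 and 9223. The groups did not overlap, and a single heifer, IUHT-H 9203, stood far above the other 5. The log2 fold change of 1.89 (standard error 0.51) fell to 1.03 when this heifer was left out.

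**Figure D1:**
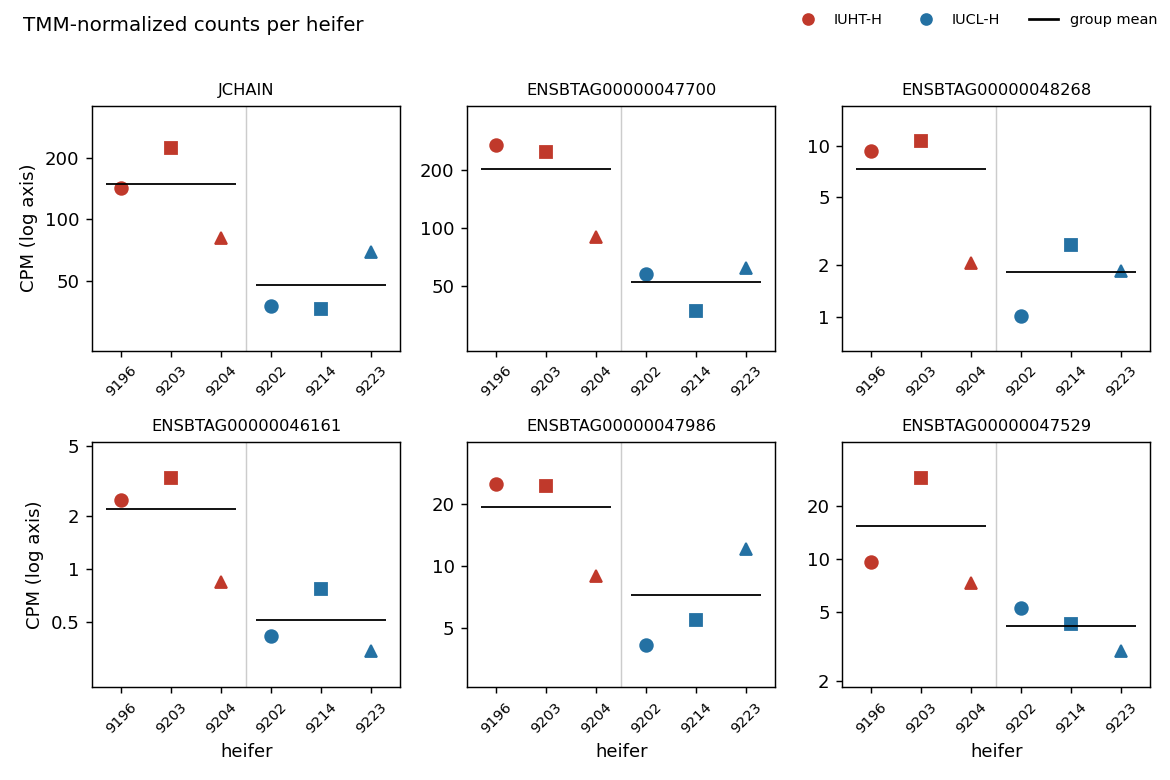
TMM-normalized CPM (logarithmic axis) of JCHAIN and the 5 unnamed genes in each of the 6 heifers; points are heifers, colours are groups and lines are group means. IUHT-H 9204 is the lowest IUHT-H in all 6 genes, whereas the highest IUCL-H differs between genes.

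At the study's cut-off for P of 0.01, edgeR's quasi-likelihood test called 5 of the 6 genes, all but ENSBTAG00000047986, and in 4 of the 6 the 3 IUHT-H were all above the 3 IUCL-H. Over all 14724 genes tested, 0.428% were called at this cut-off (0.285% higher and 0.143% lower in IUHT-H) and 3.14% had all 3 IUHT-H above all 3 IUCL-H. Since the choice of the 6 genes fixed both counts, nothing can be read from them. No gene of the 14724 had an adjusted p-value below 0.05 (Benjamini-Hochberg), and 374 had an unadjusted P below 0.05 in the quasi-likelihood test. Both these 374 genes and the 0.428% called were fewer than such cut-offs would give if no gene differed between the groups. DESeq2 gave 16 genes with an adjusted p-value below 0.05, edgeR's exact test 9 and its likelihood ratio test 11. With each heifer left out in turn, the difference of JCHAIN stayed between 2.32-fold and 3.99-fold. It was between 3.22-fold and 4.94-fold for ENSBTAG00000047700. The choice of the genes for this difference favours such steadiness. Without IUHT-H 9204 all 6 genes showed a wider difference than with it, which follows from 9204 being the lowest IUHT-H in all 6.

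Inside the groups the 6 genes varied more than most. The SD of log2 CPM within groups was 0.64 for JCHAIN and between 0.69 and 1.04 for the unnamed genes. The median was 0.20 over the 11898 genes with a mean of at least 1 CPM, and at least 96.3% of these genes varied less than each of the 6. The spread inside groups enters the test by which the study picked these genes, and the 6 were brought together with results of these data known, so the values within groups below are not independent of the choice.

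Within IUHT-H the 6 genes kept close to 1 order. IUHT-H 9204 was the lowest of the 3 in 6 of 6 genes, and the highest was 9203 in 4 genes and 9196 in 2. Over all 14724 genes, 9204 was the lowest IUHT-H in 39.5%. It was the lowest in 45.9% of the 37 other genes called higher in IUHT-H and in 2 of the 10 other unnamed genes of the study's table that passed the filter. Taking the 3 pairs of IUHT-H, the heifer with more JCHAIN also had more of the unnamed gene in 13 of 15 comparisons. All 5 unnamed genes shared the step of JCHAIN from 9204 up to 9196 and from 9204 up to 9203. In these steps JCHAIN differed by 0.81 and 1.46 on the log2 scale. The steps were shared by 50.5% and 50.6% of all other genes. Among the 37 other genes called higher in IUHT-H the shares were 59.5% and 51.4%. Both steps start from the same heifer, 9204. Between 9196 and 9203, where JCHAIN was 0.65 higher in 9203, 3 of 5 shared its sign. ENSBTAG00000047700 and ENSBTAG00000047986 did not, at -0.12 and -0.03. The 15 comparisons come from 3 heifers and are not independent of each other.

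Within IUCL-H no such order was seen. The sign of the JCHAIN difference was shared in 7 of 15 comparisons, close to the 49% to 51.8% found over all other genes. IUCL-H 9223 had the most JCHAIN, 0.88 above 9202 and 0.92 above 9214 on the log2 scale. ENSBTAG00000047986 and ENSBTAG00000047700 were also highest in this heifer, with ENSBTAG00000047986 higher by 1.54 than in 9202 and by 1.13 than in 9214. ENSBTAG00000046161 and ENSBTAG00000047529 were instead lowest in it, and ENSBTAG00000048268 lay between the others there. IUCL-H 9202 and 9214 differed by 0.04 in JCHAIN, too little to set an order.

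The share of counts taken by the 10 genes with the most counts moved with these genes in IUHT-H: it was 74.7% in 9204, where all 6 genes were lowest, and 65.8% and 64.7% in 9196 and 9203. It did not do so in IUCL-H, where 9223 and 9214 had nearly the same share (72.1% and 72.5%) and differed in JCHAIN. Its part in the order of the IUHT-H was not tested. Counted outside those 10 genes, the 6 genes together made up 0.159%, 0.178% and 0.0607% of the counts in IUHT-H 9196, 9203 and 9204. They made up 0.0359%, 0.0280% and 0.0482% in IUCL-H 9202, 9214 and 9223. For this sum 9204 remained the lowest IUHT-H and was above every IUCL-H, a separation that the choice of the genes favours. JCHAIN and ENSBTAG00000047700 gave 5585 and 6148 of the 13056 counts in 9204, so the sum says little of the other genes.

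Over all 6 heifers Pearson's r of log2 CPM between pairs of the 6 genes lay between 0.65 and 0.95 (15 pairs, median 0.86), and Spearman's rho between 0.54 and 0.94. The shared rise in IUHT-H enters these values, so they are given as a description only. Without the 2 heifers farthest from the median of the first gene of a pair, r ranged from -0.24 to 0.96 and was below 0 in 4 of the 15 pairs. For the 5 pairs with JCHAIN, where these were IUHT-H 9203 and IUCL-H 9214, r stayed between 0.56 and 0.96.

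After the mean of its group was subtracted from each value, r was above 0 in all 15 pairs and ranged from 0.18 to 0.91 (median 0.67), with rho from 0.03 to 0.89. The closest pairs were JCHAIN with ENSBTAG00000047986 (r = 0.91, rho = 0.77, n = 6) and ENSBTAG00000048268 with ENSBTAG00000046161 (r = 0.90, rho = 0.89, n = 6). No pair passed an exact permutation test that exchanged heifers within groups (36 arrangements, two-sided, smallest possible P = 0.028). The lowest exact P-values were 0.0833 for r and 0.0556 for rho, both in the pair ENSBTAG00000048268 and ENSBTAG00000046161, and after Benjamini-Hochberg adjustment over the 15 pairs the lowest were 0.521 and 0.501. Each group on its own holds 3 heifers, too few for a correlation.

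**Figure D2:**
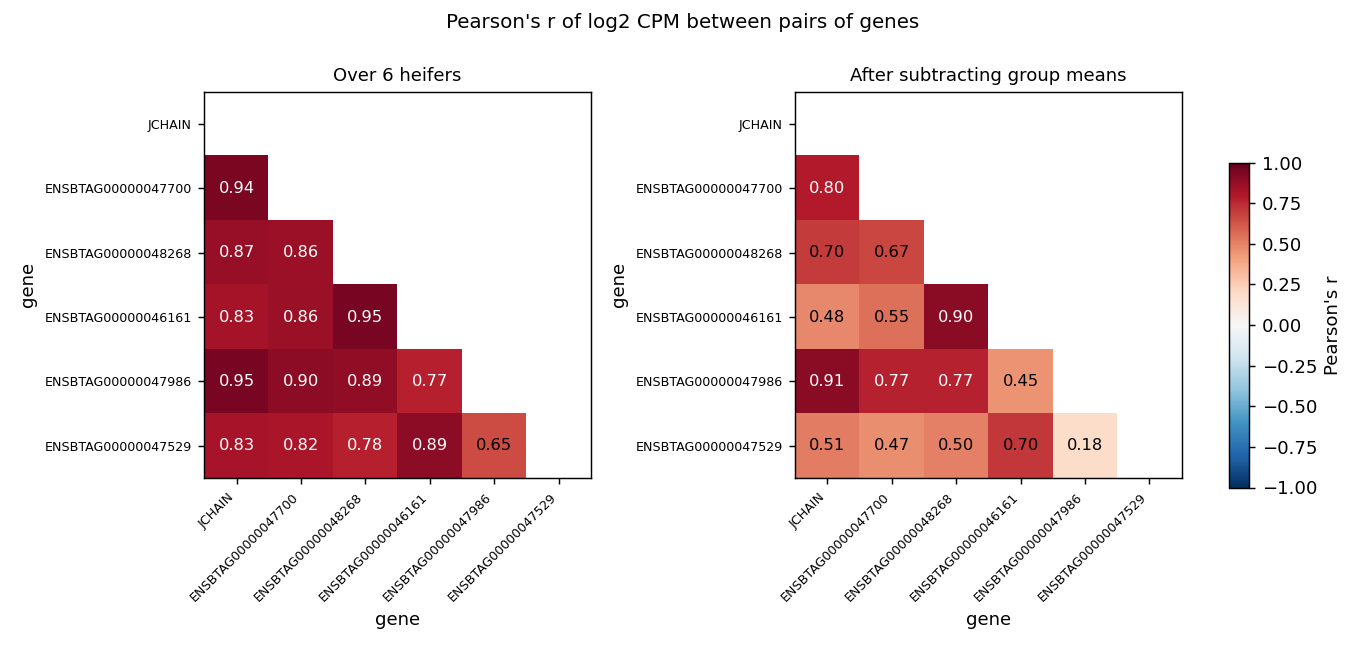
Pearson's r of log2 CPM for the 15 pairs of JCHAIN and the 5 unnamed genes, over the 6 heifers (left) and after subtracting the group means (right); colour runs from -1 to 1. On the left the values lie between 0.65 and 0.95, and on the right between 0.18 and 0.91, with JCHAIN and ENSBTAG00000047986 as one close pair and ENSBTAG00000048268 and ENSBTAG00000046161 as another.

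Such values are common with 6 heifers, and the same correlation with JCHAIN was therefore computed for every gene tested. Its median over the other 14723 genes was 0.02. ENSBTAG00000047986 (r = 0.91) was matched or exceeded by 1.44% of these genes and ENSBTAG00000047700 (r = 0.80) by 4.57%. ENSBTAG00000048268 (r = 0.70) was matched or exceeded by 8.32%, ENSBTAG00000047529 (r = 0.51) by 18.7% and ENSBTAG00000046161 (r = 0.48) by 20.8%. The 37 other genes called higher in IUHT-H had a median r of 0.04, with a range from -0.79 to 0.89, and the 10 other unnamed genes of the study's table a median of -0.04. The 5 genes thus lay in the upper part of the distribution, but 212 other genes were at least as close to JCHAIN as the closest of them.

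**Figure D3:**
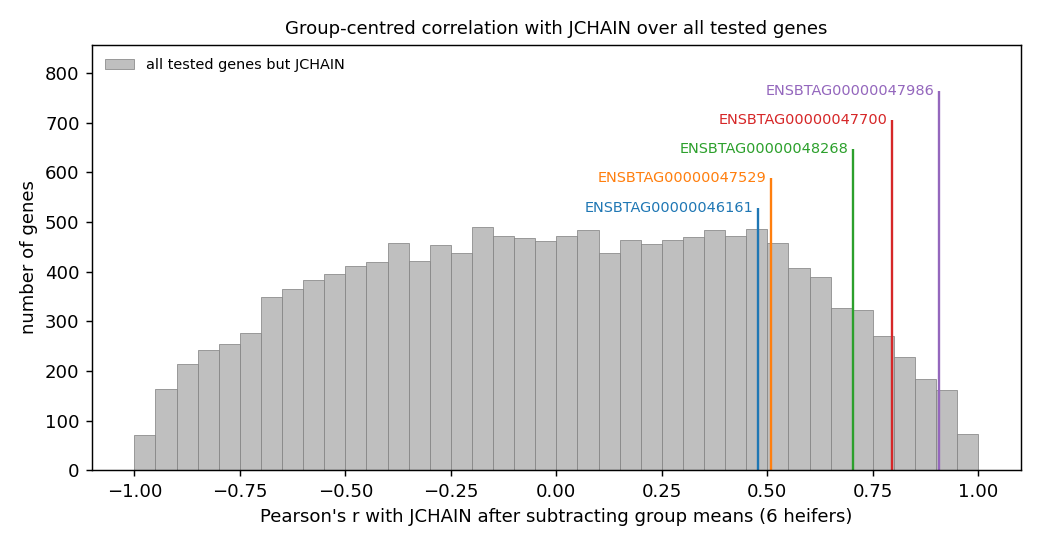
Number of genes (vertical axis) by Pearson's r with JCHAIN after subtracting group means, over 6 heifers (horizontal axis); grey bars are the 14723 other genes tested and coloured lines the 5 unnamed genes. ENSBTAG00000047986 at 0.91 lies in the upper tail, and ENSBTAG00000046161 at 0.48 and ENSBTAG00000047529 at 0.51 lie where gene counts are still high.

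A ratio of counts within a library does not depend on how libraries are scaled. The 5 unnamed genes were therefore also expressed per JCHAIN count. For ENSBTAG00000047986 there were 0.175, 0.109 and 0.111 counts per JCHAIN count in IUHT-H 9196, 9203 and 9204 and 0.110, 0.150 and 0.174 in IUCL-H 9202, 9214 and 9223. The highest ratio was 1.61 times the lowest over all 6 heifers, while JCHAIN itself ranged from 36.7 to 223 CPM. For ENSBTAG00000047700 the ratio was 1.884, 1.103 and 1.101 in the 3 IUHT-H and 1.516, 1.002 and 0.888 in the 3 IUCL-H. The highest was 2.12 times the lowest. The rise in IUHT-H for which JCHAIN and these genes were chosen narrows such ranges over all 6 heifers, so they are a description only. Within groups the SD of the log2 ratio was 0.36 for ENSBTAG00000047986 and 0.43 for ENSBTAG00000047700, below the 0.82 and 0.69 of their levels. Among the other genes with a mean of at least 1 CPM, 0.622% and 1.67% had an SD of the ratio within groups as small or smaller.

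The other 3 genes kept a less steady ratio to JCHAIN. ENSBTAG00000048268 had 0.0652, 0.0479 and 0.0254 counts per JCHAIN count in IUHT-H and 0.0268, 0.0711 and 0.0267 in IUCL-H. ENSBTAG00000046161 likewise had its highest ratio in IUCL-H 9214, at 0.0211, and its lowest in IUCL-H 9223, at 0.00491. For ENSBTAG00000046161 the highest ratio was 4.30 times the lowest, and for ENSBTAG00000047529 3.24 times. The SDs of their log2 ratios within groups were 0.76 (ENSBTAG00000048268), 0.79 (ENSBTAG00000046161) and 0.73 (ENSBTAG00000047529). These were below the 1.05, 0.86 and 0.80 of their levels. The SDs of the ratios were above the median of 0.67 over all genes with a mean of at least 1 CPM. Of these genes, 78.8%, 85.2% and 71.7% had a smaller or equal SD. The spread of JCHAIN itself, an SD of 0.64 within groups, enters the ratio of every gene.

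No ratio differed between IUHT-H and IUCL-H beyond the spread of the heifers. JCHAIN and the 5 genes were all chosen for a rise in IUHT-H, which favours small differences in advance. Nothing can therefore be concluded from the lack of a difference. The mean log2 ratio was higher in IUHT-H by 0.25 for ENSBTAG00000047700 (exact permutation test, two-sided, P = 0.5), by 0.21 for ENSBTAG00000048268 (P = 1), by 0.41 for ENSBTAG00000046161 (P = 0.7) and by 0.08 for ENSBTAG00000047529 (P = 0.9; exact permutation tests, two-sided). For ENSBTAG00000047986 the IUHT-H minus IUCL-H difference was -0.14 (exact permutation test, two-sided, P = 0.8). With 3 against 3 heifers the exact permutation test cannot go below P = 0.1. Each of the 5 differences changed sign when a heifer was left out: without IUHT-H 9196 ENSBTAG00000047700 stood at -0.004 and ENSBTAG00000048268 at -0.087, and without IUCL-H 9223 ENSBTAG00000046161 stood at -0.13, ENSBTAG00000047529 at -0.45 and ENSBTAG00000047986 at 0.002. ENSBTAG00000048268 also changed sign without IUCL-H 9202 or 9223, and ENSBTAG00000047529 without IUHT-H 9203.

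**Figure D4:**
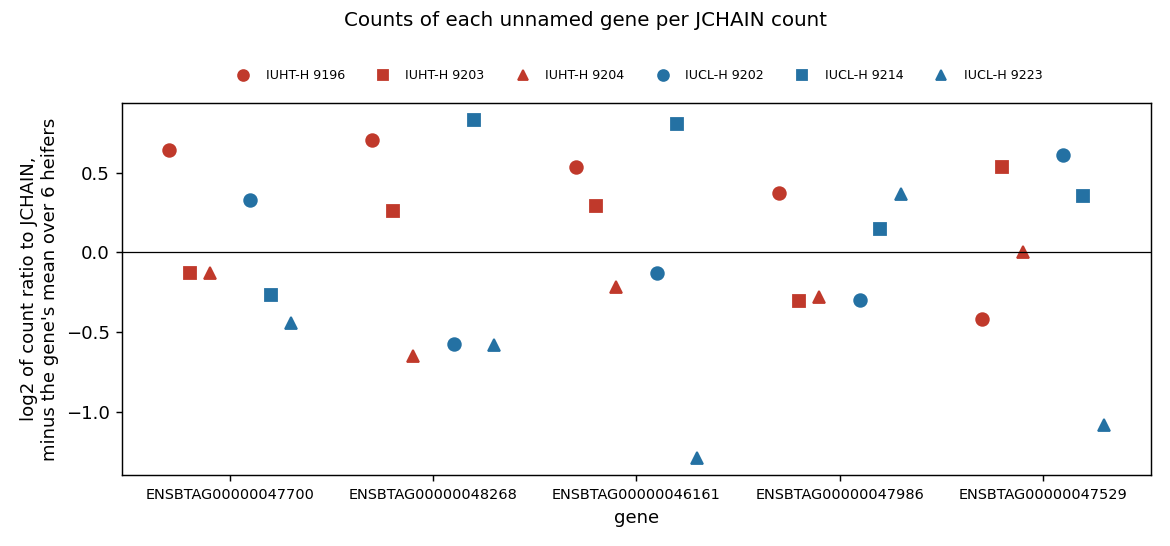
Log2 of the counts of each unnamed gene per JCHAIN count in each heifer, minus the gene's mean over the 6 heifers (vertical axis); red symbols are IUHT-H and blue symbols IUCL-H. The points of ENSBTAG00000047986 and ENSBTAG00000047700 are the most tightly packed, and IUHT-H and IUCL-H are mixed in all 5 genes. The choice of genes that rise in IUHT-H favours such mixing.

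Among all genes with a mean of at least 1 CPM, the 10 with the steadiest count ratio to JCHAIN over the 6 heifers, the followed genes left out, had SDs of the log2 ratio from 0.32 to 0.58. ENSBTAG00000047986 and ENSBTAG00000047700 ranked 2 and 3 of 11897 by this measure, ENSBTAG00000047529 ranked 26, ENSBTAG00000048268 ranked 44 and ENSBTAG00000046161 ranked 87. A gene that is higher in IUHT-H by a like amount scores well on this measure, so these ranks carry the group difference that chose the genes. In 9 of the 10, IUHT-H 9204 was the lowest IUHT-H, as the pick itself favours, since JCHAIN was lowest in that heifer.

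The gene nearest to JCHAIN was LCN2 (ENSBTAG00000014149), which encodes lipocalin 2, a secreted protein that binds bacterial siderophores and is made by neutrophils and by inflamed epithelium. LCN2 had 24.8, 37.8 and 21.4 CPM in IUHT-H 9196, 9203 and 9204 and 10.2, 6.10 and 14.8 CPM in IUCL-H 9202, 9214 and 9223. As in JCHAIN, 9203 was the highest and 9204 the lowest IUHT-H and 9223 the highest IUCL-H. LCN2 was picked for its steady ratio to JCHAIN over these heifers, which favours such a match. Its r with JCHAIN after subtracting group means was 0.83. ELL3, a transcription elongation factor, and SFRP1, a secreted regulator of Wnt signaling, were the other named genes among the 10, with r of 0.59 and 0.48. The remaining 7 have no name here. Of these, ENSBTAG00000048135 had 325, 343 and 105 CPM in IUHT-H and 81.0, 99.0 and 178 CPM in IUCL-H, an overlap between IUCL-H 9223 and IUHT-H 9204 like that of ENSBTAG00000047986. Its r with JCHAIN after subtracting group means was 0.92, above that of all 5 unnamed genes followed here. Names existed for 257 of the 14724 genes tested, all from tables of genes that the study had picked, so which named genes stand beside JCHAIN depends on that choice.

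The study's table holds 11 further unnamed genes, of which 10 passed the filter on low counts. Their log2 fold changes ran from -2.61 (ENSBTAG00000047179) to 6.77 (ENSBTAG00000037605), against 1.42 to 2.11 for the genes followed here. They shared no single order within IUHT-H: 9204 was the highest of the 3 in 5 of the 10 and the lowest in 2, and 9196 was the lowest in 6. ENSBTAG00000024647, chosen here after its values were seen, had the order of JCHAIN, with 1.66, 1.92 and 0.841 CPM in 9196, 9203 and 9204. ENSBTAG00000037605, for example, had 24.1 and 46.4 CPM in IUHT-H 9196 and 9204 and 0.224 CPM in 9203.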

How the data were processed

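Total RNA of mammary biopsies from 3 IUHT-H and 3 IUCL-H was sequenced as paired-end libraries. The authors mapped the reads with TopHat2 2.0.13 (HTSeq is also named in the submitters' processing notes, build UMD3.1 there and bosTau7 in the study's methods) and deposited unnormalized whole-number counts per Ensembl gene, 1 file per heifer. Counting settings, strand use and annotation version are not given in the sources used here, so reads shared with related or antisense genes cannot be told apart. The fourth IUCL-H of the study was not analysed here. Nothing in the labels says that heifers share a batch.

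Genes were filtered with filterByExpr, scaled by TMM and tested with edgeR 4.0.16 (R 4.3.3; glmQLFit, glmQLFTest, no covariates). CPM values are TMM-scaled. Standard errors are the log2 fold change divided by the square root of F. Correlations used log2 CPM with a prior count of 2, ratios over all genes 0.5 added to each count. DESeq2 1.42.0, edgeR's exact and likelihood ratio tests, other scalings and filters, and leaving out each heifer were the alternatives. The named genes are the members, the 10 genes with the steadiest ratio to JCHAIN among those with a mean of at least 1 CPM, and the ends of the range of the other unnamed genes; of unnamed genes among the 10, only the one with the highest correlation is printed. Genes were named from the study's tables (365 of 24579 identifiers); the RefSeq table (ARS-UCD2.0) paired 0 identifiers, so coordinates and sequences are not given and the planned marker and immunoglobulin lists could not be used. Members and lists were chosen with earlier results of these data known. The tests were checked on simulated counts with known changes.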

Additional observations from a re-analysis of the deposited data

How the results depend on the processing

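The number of genes called between IUHT-H and IUCL-H was 63 in the quasi-likelihood test, 124 with DESeq2, 108 with edgeR's exact test and 112 with its likelihood ratio test. It ranged from 38 to 246 when each heifer was left out: 246 without IUCL-H 9202, 225 without IUHT-H 9204 and 38 without IUCL-H 9214. The other scalings and filters kept the count within 1.5 times. The median log2 fold change of the 6 genes, 1.92, stayed between 1.43 and 2.27 with each heifer left out, and no gene reversed. The 6 genes were chosen for this difference in these same heifers, which favours such steadiness, so nothing is concluded from it. With library size alone as scaling, the median of all genes shifted by 0.13 on the log2 scale and that of the 6 genes stood at 2.12. Of 54 alternatives for single genes, 53 moved the log2 fold change by less than the spread inside groups, and 1 by more, ENSBTAG00000047529 without IUHT-H 9203 (1.03). That spread was wide in these genes, with SDs from 0.64 to 1.04, so only a large shift could exceed it. JCHAIN without IUHT-H 9203 stood at 1.22 against 1.63 (standard error 0.39) and still counted as less. The 53 are therefore not a sign of stable fold changes.

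The median correlation over the 6 heifers, 0.86, was 0.77 with Spearman's coefficient and 0.56 without the 2 heifers farthest from the median. After subtracting group means, the median of the 15 pairs was 0.67, and between 0.60 and 0.76 under the other settings. With library size alone, the median r of all genes with JCHAIN rose from 0.02 to 0.60, and the median share of genes at or above the 5 unnamed genes rose from 8.32% to 18.4%. The median difference of the ratios to JCHAIN, 0.21, lay between -0.02 and 0.40 with each heifer left out. Other settings for the marker lists were not run, because no list gene could be paired with an identifier through the RefSeq gene table. No paired analysis was possible because the labels give heifers of different groups no shared number.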
